A study of Mus musculus with 2 samples.

Results

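The miR-130, miR-301, miR-148 and miR-152 genes were examined in microRNA-seq libraries of the embryonic mouse heart. Members were the rows of the deposited count tables whose Ensembl identifier, without its version, belonged in GENCODE M21 to Mir130a, Mir130b, Mir301 (the gene of miR-301a), Mir301b, Mir148a, Mir148b or Mir152. All 7 genes were found among the 1973 listed miRNA genes. Each of the 7 had 10 or more sense counts in both libraries, the limit used here to call a gene detected, as did 365 genes in all. The samples were hearts of healthy B6NCrl embryos at embryonic day 16.5, with males and females pooled, and no treatment or genetic change was given by the labels. The 2 libraries are labelled biological replicates of this single group. Replicate 2 was made from 41 embryos, while the labels used here give no number for replicate 1. There is no second condition. The data address the share of counted reads of each miRNA gene and how members of a family stood to each other. They also address how far the pools differed. With 1 library on each side, the p-values of that comparison rest on counting error and do not measure variation between embryos.

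MicroRNAs guide Argonaute proteins to messenger RNAs, mainly through the seed at bases 2 to 8 from the 5′ end, and lower the output of their targets. The miR-130 and miR-301 miRNAs share a seed and are known for repressing Pparg, a nuclear receptor of fat and vascular cells. In addition, miR-130a is known for repressing Zfpm2 (FOG2), a cofactor of GATA4 in heart development, and the growth-arrest homeobox gene Meox2 in endothelial cells. The miR-148 and miR-152 miRNAs form another seed family, best known for repressing the maintenance DNA methyltransferase Dnmt1.

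The 3p arms are shown because their 5′ ends define the 2 families and because the bases beyond the seed differ between the genes. How reads with mismatches were assigned is not known. RefSeq (GRCm38.p6, the build called mm10 in the files) held a hairpin and a 5p arm for 7 of the 7 genes and a 3p arm for 6, and all 7 hairpins had the same coordinates as in GENCODE. Capitals mark the seed, bases 2 to 8.
miR-130a-3p: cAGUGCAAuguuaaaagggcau
miR-130b-3p: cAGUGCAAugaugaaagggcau
miR-301a-3p: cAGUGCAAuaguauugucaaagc
miR-148a-3p: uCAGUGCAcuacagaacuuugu
miR-148b-3p: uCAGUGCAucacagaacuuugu
miR-152-3p: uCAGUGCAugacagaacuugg
The first 3 arms carry the seed AGUGCAA and the last 3 carry CAGUGCA. The 2 seeds overlap but are not the same. The letters CAGUGCA stand at bases 1 to 7 of the miR-130 and miR-301 arms. In the miR-148 and miR-152 arms they stand at bases 2 to 8. Read on its own strand, the hairpin of Mir301b also holds AGUGCAA, as do the hairpins of the other miR-130 and miR-301 genes. With these 4 included, AGUGCAA was found in 12 of 1005 RefSeq mouse miRNA hairpins (1.19%). CAGUGCA was found in 22 of the 1005 (2.19%), 7 of which are the members, since it overlaps AGUGCAA in the miR-130 and miR-301 arms.

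Beyond the seed the members diverged by different amounts. Positions are counted from 1 at the 5′ end of the mature arm, without gaps, and the first-named arm is given first. Between miR-130a-3p and miR-130b-3p, 20 of 22 bases were identical, and the differences were U11A and A13G. From miR-130a-3p to miR-301a-3p only 12 of 22 bases were identical, and all differences lay from base 10 onward. Between miR-148a-3p and miR-148b-3p, 20 of 22 bases were identical, with the differences C9U and U10C. Between miR-148b-3p and miR-152-3p, 19 of 21 compared bases were identical, with C10G and U20G. The longest run of letters shared by any pair of 3p arms within a family was 12, between miR-148a-3p and miR-148b-3p. None of the 7 hairpins shared a 20-base sequence, on either strand, with any other of the 1894 listed hairpins in GENCODE M21, whereas 78 of the 365 detected genes (21.4%) did. Matches elsewhere in the genome were not analysed here.

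The 5p arms of the miR-301 pair are shown because Mir301b is the low member of its cluster and this is the arm of it that RefSeq held. Capitals again mark bases 2 to 8.
miR-301a-5p: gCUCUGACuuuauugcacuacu
miR-301b-5p: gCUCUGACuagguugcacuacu
These arms share the bases marked and differ by U10A, U11G and A12G, with 19 of 22 bases identical. The deposited counts are per hairpin gene and do not separate a 3p from a 5p arm, so every level that follows is that of the whole gene.

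The 7 genes lie on 5 chromosomes and in different settings (mm10, GENCODE M21). Mir130a (ENSMUSG00000065484.1; chr2:84741115-84741178, minus strand) and Mir148a (ENSMUSG00000065505.1; chr6:51269812-51269910, minus strand) lay in no annotated gene of their strand. Mir130b (ENSMUSG00000065572.1; chr16:17124061-17124142, minus strand) and Mir301b (ENSMUSG00000076288.1; chr16:17124400-17124496, minus strand) form a cluster in an intron of 2610318N02Rik, with 257 bases between the hairpins. They were each other's only listed miRNA gene within 10 kb, and the remaining 5 members had none. Mir301 (ENSMUSG00000065589.1; chr11:87113004-87113089, plus strand) was intronic in Ska2, a gene of the spindle and kinetochore complex. Mir148b (ENSMUSG00000065560.1; chr15:103285125-103285221, plus strand) was intronic in Copz1, and Mir152 (ENSMUSG00000065515.1; chr11:96850393-96850465, plus strand) in Copz2. Copz1 and Copz2 are paralogues that encode zeta subunits of the COPI vesicle coat, so these 2 family members sit in paralogous hosts.

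The libraries held 6473482 (replicate 1) and 5841568 (replicate 2) sense counts at listed genes. Levels are counts per 1000000 sense counts (CPM), and a count of 0 allows up to 3 counts, or 0.463 and 0.514 CPM. Reads matching several places (29.5% and 31.9% of reads) were counted in no gene. The labelled tissue was checked against its miRNAs: the heart muscle list summed to 67709 and 67124 CPM, nearly all of it from Mir208b, Mir208a and Mir499 of the myosin genes. Its other 2 genes had few counts: Mir1a-1 had 19 and 11, and Mir133a-1 had 19 and 14. Each shares a 20-base sequence with 1 or 2 other hairpins. The endothelial Mir126a stood at 85876 and 84222 CPM. Of the smooth muscle and fibroblast list, 5 of 6 genes were detected, at a summed 18108 and 18142 CPM. Most of this sum came from Mir21a (14148 ± 117 CPM), and Mir199a-1, Mir199a-2 and Mir199b of the list share 20-base sequences with each other. The smooth muscle gene Mir143, which was not on that list and is named after its value was seen, was the highest of all genes at 96423 ± 348 CPM. Sums were 4624 and 3229 CPM for 5 of 5 epithelial genes detected, 2118 and 1805 for 3 of 3 erythroid genes, and 586 and 717 for 3 of 3 measured leukocyte genes. The liver gene Mir122 stood at 160 and 161 CPM, and of 3 neural genes only Mir128-1 was detected (Mir9-2 was at 0 in both libraries). Each of the 3 neural genes shares a 20-base sequence with 1 or 2 other hairpins, so low counts there do not show absence. In bulk hearts, fewer cells of a type and less RNA per cell cannot be told apart.

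Counted reads held far more of the miR-130 and miR-301 family than of the miR-148 and miR-152 family. The 4 genes of the first gave 128208 counts in replicate 1 and 122357 in replicate 2. That was 1.98% (Wilson 95% interval 1.97 to 1.99) and 2.09% (2.08 to 2.11) of all sense counts, or 2.04% ± 0.081 (SD, n = 2). The 3 genes of the second gave 7057 and 6478 counts, or 0.109% (0.107 to 0.112) and 0.111% (0.108 to 0.114), with a mean of 0.110% ± 0.0013. The first family exceeded the second 18.2-fold (exact 95% interval 17.7 to 18.6) and 18.9-fold (18.4 to 19.4), a log2 ratio of 4.21 ± 0.040. Both libraries placed the families in the same order, and the intervals of the ratio overlapped. Intervals here cover counting error only, since no molecular identifiers are given and PCR copies are not independent molecules.

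**Figure D1:**
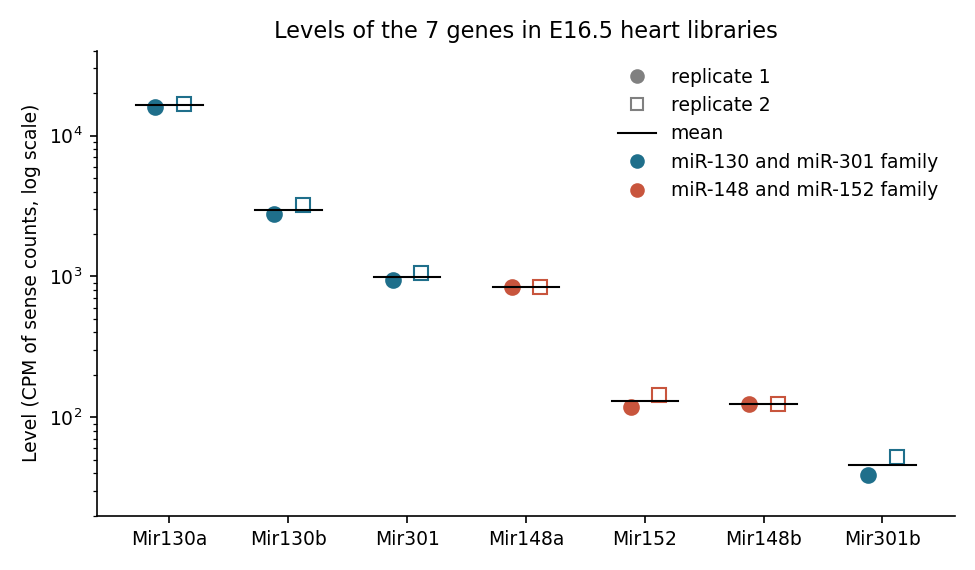
Level of each gene in CPM of sense counts (log axis) in replicate 1 (filled circles) and replicate 2 (open squares), with the mean as a line and the family as colour. Levels fall from 16357 CPM for Mir130a to 45.6 CPM for Mir301b, and only Mir152 and Mir148b overlap between libraries.

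Mir130a, the FOG2-repressing miRNA, was the dominant member. It had 103999 counts in replicate 1 and 97253 in replicate 2, or 16065 and 16648 CPM, a mean of 16357 ± 412 CPM (SD, n = 2). It ranked 16 and 13 of the 1973 listed genes in the 2 libraries and 14 by mean level. Ranks are among counted reads: reads matching several places are missing from genes that share sequence with a copy, so ranks with all reads are not known. Alone it held 1.61% (1.60 to 1.62) and 1.66% (1.65 to 1.68) of all sense counts.

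Mir130b, whose 3p arm differs from that of Mir130a at U11A and A13G, had 17893 and 18630 counts. Its level was 2764 CPM in replicate 1 and 3189 CPM in replicate 2, or 2977 ± 300.6 CPM, at rank 40. Mir301, in the intron of Ska2, had 6066 and 6167 counts. Its level was 937 and 1056 CPM, or 996 ± 83.9 CPM, at rank 83. Mir301b had 250 and 307 counts and was the lowest of the 7. Its level was 38.6 and 52.6 CPM, or 45.6 ± 9.85 CPM, at rank 222. All 3 genes had a higher CPM in replicate 2, and their levels did not overlap with each other.

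Mir148a led the Dnmt1-repressing family. It had 5483 and 4921 counts, or 847 and 842 CPM, a mean of 845 ± 3.24 CPM at rank 84. Its coefficient of variation between the libraries was 0.384%, so the 2 values nearly coincide. Mir148b, in Copz1, had 804 and 723 counts, or 124.2 and 123.8 CPM, a mean of 124 ± 0.30 CPM at rank 177. Mir152, in Copz2, had 770 and 834 counts. Its level was 119 CPM in replicate 1 and 143 CPM in replicate 2, or 131 ± 16.8 CPM at rank 171. Each of Mir148a and Mir148b thus kept nearly its own CPM from one pool to the other. Mir152 was below Mir148b in replicate 1 and above it in replicate 2.

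The order by mean level was Mir130a, Mir130b, Mir301, Mir148a, Mir152, Mir148b and Mir301b. Of the 6 steps in this order, 5 separated genes whose libraries did not overlap, and Mir152 and Mir148b did not differ beyond their spread. The narrowest of the 5 steps was from Mir301 to Mir148a, across the family border. Mir301 exceeded Mir148a 1.11-fold (1.07 to 1.15) in replicate 1 and 1.25-fold (1.21 to 1.30) in replicate 2. These orders are of read counts, and differences between miRNAs in how well they are captured were not tested. The mature arms listed for the 7 genes are 21 to 24 bases long, and the hairpins 64 to 99 bases. Divided by hairpin length, the order of the 7 genes was the same, from 256 CPM per hairpin base for Mir130a to 0.470 for Mir301b. This division could not reverse the narrow steps, since the higher gene also had the shorter hairpin. The lengths were 86 bases for Mir301 against 99 for Mir148a, and 73 for Mir152 against 97 for Mir148b.

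**Figure D2:**
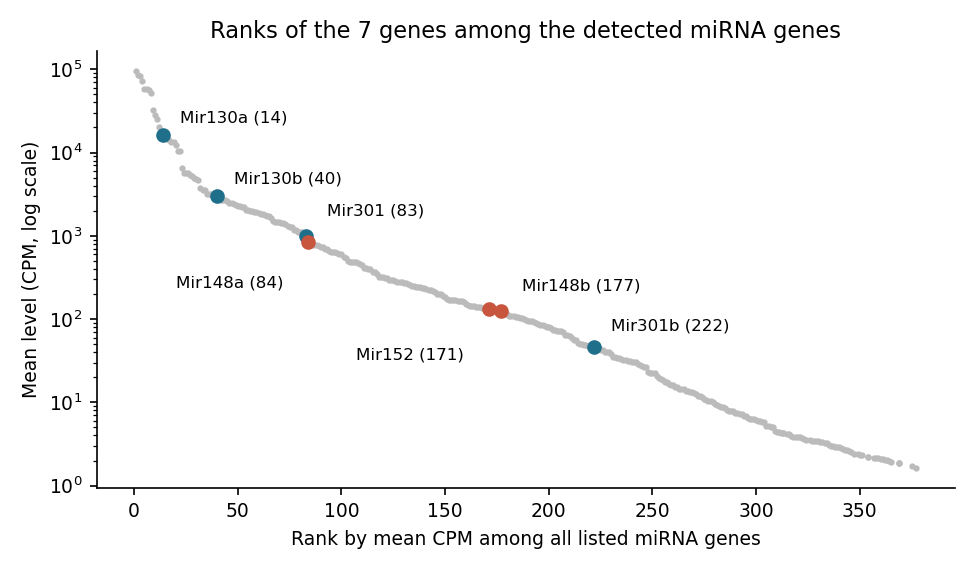
Mean level in CPM (log axis) of the 365 detected miRNA genes against their rank among all listed genes, with the 7 genes coloured by family and labelled with their rank. Mir130a stands at rank 14 and Mir301b at rank 222, so the members reach from near the top of the curve to beyond its middle.

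Each family was dominated by a gene outside any annotated host. Mir130a gave 81.1% (Wilson 95% interval 80.9 to 81.3) of its family's counts in replicate 1 and 79.5% (79.3 to 79.7) in replicate 2, or 80.3% ± 1.16. Mir130b gave 14.6% ± 0.90, Mir301 4.89% ± 0.22 and Mir301b 0.223% ± 0.040. In the other family Mir148a gave 77.7% (76.7 to 78.7) and 76.0% (74.9 to 77.0), or 76.8% ± 1.22. Mir152 gave 11.9% ± 1.39 and Mir148b 11.3% ± 0.16, so the 2 genes in coatomer hosts held nearly equal parts.

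**Figure D3:**
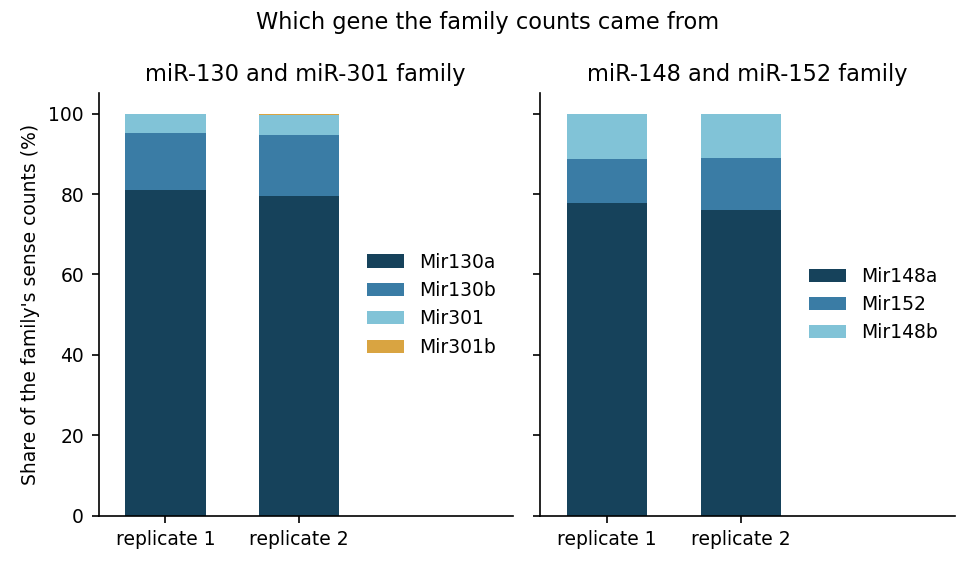
Share of each family's sense counts (%) by gene, as stacked bars for the 2 libraries. Mir130a makes up 81.1% and 79.5% of the miR-130 and miR-301 bars and Mir148a 77.7% and 76.0% of the miR-148 and miR-152 bars, while Mir301b is barely visible at 0.195% and 0.251%.

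The ratio of each pair of genes within a family was then taken within each library, which removes the library total. All 9 pairs were computed, and 8 of them stood in the same order in both libraries. Within the miR-130 and miR-301 genes, Mir130a exceeded Mir130b 5.81-fold (exact 95% interval 5.72 to 5.91) in replicate 1 and 5.22-fold (5.14 to 5.30) in replicate 2, a log2 ratio of 2.46 ± 0.11. Mir130a exceeded Mir301 17.1-fold (16.7 to 17.6) and 15.8-fold (15.4 to 16.2). Both ratios were smaller in replicate 2 by more than counting error. By contrast, Mir130b over Mir301 was 2.95-fold (2.86 to 3.04) and 3.02-fold (2.94 to 3.11), a log2 ratio of 1.58 ± 0.024 with overlapping intervals. These 2 genes lie on different chromosomes.

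The clustered genes Mir130b and Mir301b, 257 bases apart on one strand, differed widely in level. Mir130b exceeded Mir301b 71.6-fold (63.2 to 81.4) in replicate 1 and 60.7-fold (54.2 to 68.2) in replicate 2, a log2 ratio of 6.04 ± 0.17. The intervals of the 2 libraries overlapped. Mir301, the paralogue of Mir301b on chromosome 11, exceeded it 24.3-fold (21.4 to 27.6) and 20.1-fold (17.9 to 22.6), again with overlapping intervals. The widest ratio of the family was Mir130a over Mir301b, at 416-fold (367 to 473) and 317-fold (283 to 355).

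Within the miR-148 and miR-152 genes, Mir148a exceeded Mir148b by the same factor in both libraries within counting error, 6.82-fold (6.33 to 7.35) and 6.81-fold (6.29 to 7.37), a log2 ratio of 2.77 ± 0.0020. Mir148a exceeded Mir152 7.12-fold (6.60 to 7.69) in replicate 1 and 5.90-fold (5.48 to 6.36) in replicate 2, and these intervals did not overlap. Mir152 over Mir148b was 0.958 (0.866 to 1.06) in replicate 1, an interval that includes equality. In replicate 2 it was 1.15 (1.04 to 1.28). The log2 ratio of 0.072 ± 0.19 was smaller than its spread between libraries, so the order of these 2 genes was not settled by the data.

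**Figure D4:**
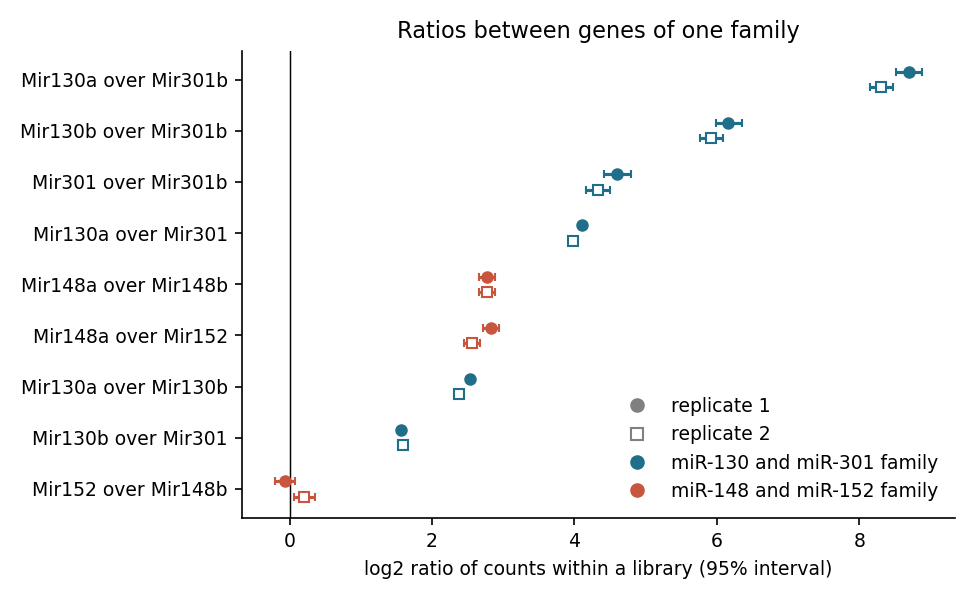
Log2 ratio of counts for each of the 9 pairs of genes within a family, for replicate 1 (filled circles) and replicate 2 (open squares), with exact 95% intervals as bars and equality as a vertical line. The ratios run from 8.70 for Mir130a over Mir301b to -0.06 for Mir152 over Mir148b in replicate 1, the pair at the equality line.

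To ask how far the pools differed, the counts of every detected gene in both libraries were set against library sizes scaled by the trimmed mean of M-values (TMM) in an exact binomial test (two-sided). Benjamini-Hochberg adjustment ran over all 365 detected genes. Genes were called at a minimum change of 2-fold with an adjusted p under 0.05. Such a test sets library against library, not condition against condition. Of the 7 genes, 0 were called, beside 12 of 365 genes (3.29%). At an unadjusted p under 0.05 with no minimum fold, 5 of the 7 passed, beside 52.1% of the 365 genes. In turn, 0 of the 7 were called with DESeq2 size factors or total counts as scaling.

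With no minimum fold, 5 of the 7 genes passed the adjusted p, beside 169 of 365 (46.3%). All 5 were higher in replicate 2, as were 95 of the 365 (26.0%), while 74 (20.3%) were lower. The median log2 ratio of replicate 2 over replicate 1 was 0.20 over the 7 genes and 0.018 over all 365. The median absolute log2 ratio was 0.20 over the 7 genes and 0.21 over all 365. Over the 187 tested genes of at least 100 CPM, where all members but Mir301b lie, it was 0.14 and the median log2 ratio was 0.010. At these depths a small shift passes the test: Mir130a was 1.05-fold higher in replicate 2 (log2 0.08, 95% interval 0.06 to 0.09; adjusted p = 5.12e-32 by the exact binomial test). Mir130b was 1.17-fold higher (log2 0.23, 0.20 to 0.26; adjusted p = 3.31e-52, exact binomial test) and Mir301 1.15-fold higher (log2 0.20, 0.15 to 0.25; adjusted p = 2.07e-13, exact binomial test). The largest shift was that of Mir301b, 1.38-fold higher (log2 0.47, 0.22 to 0.72; adjusted p = 0.000383, exact binomial test), and 86 of the 365 genes had a larger absolute ratio.

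Of the Dnmt1-repressing genes, Mir152 was 1.22-fold higher in replicate 2 (log2 0.29, 0.15 to 0.43; adjusted p = 0.000192, exact binomial test). Mir148a had a log2 ratio of 0.018 (-0.038 to 0.073; adjusted p = 0.663, exact binomial test) and Mir148b of 0.021 (-0.13 to 0.17; adjusted p = 0.879, exact binomial test). For these 2 genes the intervals leave room for a shift of up to 0.073 and 0.17 on the log2 scale. Between the same libraries, by the same adjusted p with no minimum fold, all 5 epithelial markers were lower in replicate 2, 2 of 3 measured leukocyte markers were higher, and 1 of 3 erythroid markers was lower. Of the smooth muscle and fibroblast markers 3 were higher (log2 0.31 for Mir145a, 0.23 for Mir199b and 0.04 for Mir21a) and 1 was lower (-0.27 for Mir214). In the heart muscle list Mir208a was higher (0.26) and Mir208b lower (-0.016), and the neural Mir128-1 was higher (0.67). The endothelial Mir126a (-0.0026) and the liver gene Mir122 (0.038) did not pass. The part of these cell types in the shifts of the 7 genes was not tested.

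**Figure D5:**
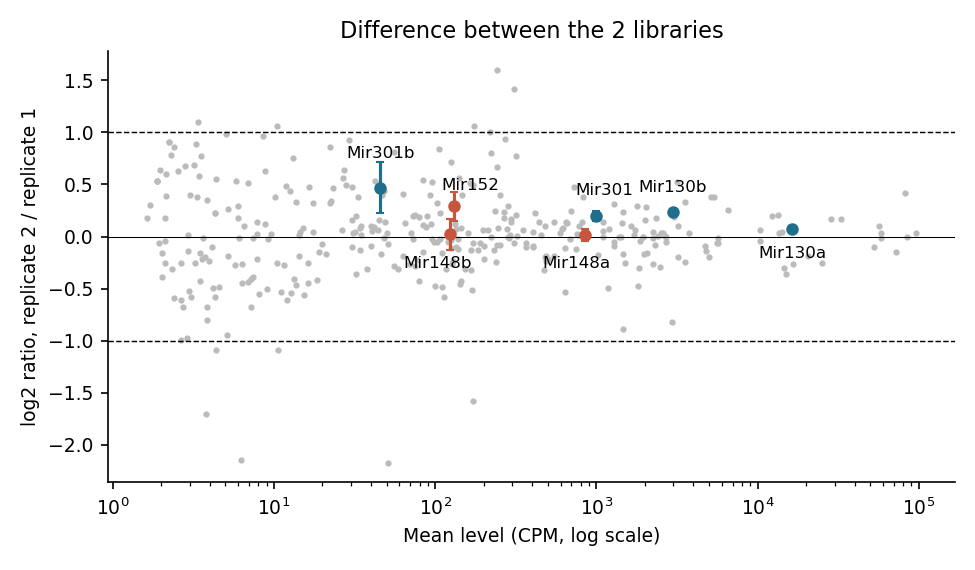
Log2 ratio of replicate 2 over replicate 1 (TMM-scaled) against mean CPM (log axis) for the 365 detected genes in grey, with the 7 genes coloured by family and exact 95% intervals as bars; dashed lines mark 2-fold. All 7 lie inside the dashed lines, from 0.018 for Mir148a to 0.47 for Mir301b.

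Genes nearest in mean level over the 2 libraries were taken as the gene just above and just below each member. Mir130a stood between Mir23b at 16606 ± 2335 CPM and Mir99b at 15053 ± 2857 CPM. Both neighbours were lower in replicate 2 (14955 and 13033 CPM) than in replicate 1 (18257 and 17073 CPM), and their spread exceeded their distance from Mir130a. Mir130b stood between Mir107 at 3012 ± 303 CPM and Mir10a at 2938 ± 1188 CPM. Mir301 and Mir148a were neighbours of each other, with Mir501 (1025 ± 102 CPM) above and Mir181b-2 (828 ± 144 CPM) below. Mir152 stood between Mir3102 (133 ± 6.45 CPM) and Mirlet7a-2 (128 ± 16.5 CPM), Mir148b between Mir494 (126 ± 8.44 CPM) and Mir669l (121 ± 4.55 CPM), and Mir301b between Mir673 (46.2 ± 4.34 CPM) and Mir331 (45.1 ± 3.04 CPM). Likeness here is of level only, over 2 libraries.

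Other measured miRNAs with the AGUGCAA seed had no counts in these libraries. RefSeq listed 7 mature miRNAs with the seed AGUGCAA, 3 of them the arms shown above. Of the others, miR-130c, miR-6341 and miR-6389 come from listed genes with 0 counts in both libraries, which allows up to 0.463 and 0.514 CPM each, and miR-721 was not analysed here. The arms of miR-6389 and miR-130c are shown because, of these 4, they match miR-130a-3p over the longest stretch from the 5′ end, 15 and 12 bases. The seed is in capitals.
miR-6389: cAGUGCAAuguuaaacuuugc
miR-130c: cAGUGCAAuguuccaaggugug
With the seed CAGUGCA, RefSeq listed only the 3 arms of Mir148a, Mir148b and Mir152. Of the listed genes for which RefSeq held an arm with either seed, only members had counts. No sense count in either library was common, however, and held for 1248 of the 1973 listed genes.

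Other miRNAs with related textbook targets were compared with the members over counted reads only. Mir27a and Mir27b share a 20-base sequence with each other, as Mir29b-1 does with Mir29b-2 and Mir29c, so reads matching several of these genes are missing from their levels, while no member shares one. The miR-27 genes, which also repress Pparg, were both detected: Mir27b stood at 1388 ± 20.98 CPM and Mir27a at 296 ± 16.5 CPM. Of the 2, Mir27a was higher in replicate 2 (log2 0.14, adjusted p = 0.00919 by the exact binomial test) and Mir27b did not pass. Of the 4 miR-29 genes, known for repressing the de novo methyltransferases Dnmt3a and Dnmt3b, 3 were detected, led by Mir29a at 253 ± 46.6 CPM and Mir29c at 64.6 ± 3.31 CPM. Mir29a was higher in replicate 2 (log2 0.40, adjusted p = 4.84e-14 by the exact binomial test), and no other miR-29 gene passed. The counted reads of the miR-29 genes summed to 287 and 357 CPM.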

How the data were processed

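The authors' deposited values are raw read counts per miRNA gene, made on build mm10 with annotation M4 per the file lists that accompany the libraries. The aligner and counter are not given in the sources used here. One column counts both strands together and the others count them apart. The one of these with more gene counts in both libraries served as sense. The 4 lines that name no gene (unmapped, matching several places, outside genes, ambiguous; together 57.4% and 54.7% of reads on the sense strand) stayed out of totals. Genes were matched to GENCODE M21 (1894 of 1973 listed genes) and sequences to RefSeq.

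CPM are counts divided by the sense total. With a single group, edgeR's quasi-likelihood test had no contrast. TMM factors came from edgeR 4.0.16 in R 4.3.3, and log2 ratios between libraries had 0.5 added to each count. Binomial tests and intervals used scipy 1.17.1. The binomial test between libraries was tried on simulated counts with counting error only, and the intervals were not tried. That simulation held no variation between pools beyond fold changes set in advance. It therefore does not show how the test behaves when pools vary. Alternatives included DESeq2 1.42.0 size factors. A chi-square of 83.1 per gene separated the libraries, which is far beyond the sampling noise expected of repeat deposits.

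The members and lists were chosen with earlier results of these data known. Named genes were the 7 members, their nearest genes in level, genes of the same seed, listed miRNA genes within 10 kb, and the highest genes of the marker and target lists.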

Additional observations from a re-analysis of the deposited data

Results flagged for a closer look

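Mir130a had 15 counts on the opposite strand in replicate 1 and 9 in replicate 2, which are more than the 3 counts that a count of 0 allows, in a column that no comparison used. They made up 0.0144% and 0.00925% of its counts of either strand, and GENCODE M21 holds no gene on the other strand there. Of the remaining members, Mir152 had 3 and 0 opposite-strand counts and the other 5 had 0 in both libraries. Among 82 genes of at least 1000 CPM, 5 had opposite-strand counts in both libraries. The source of these reads was not tested.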

How the results depend on the processing

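Scaling by total counts or DESeq2 size factors, other count limits and counting either strand kept all 5 members past the adjusted p higher in replicate 2. With no minimum fold, 5 of the 7 genes were called in place of 0, and 169 of all genes in place of 12. The count over all genes was 21 with no count filter and 6 with at least 50 counts in each library, the members staying at 0. Mir148a and Mir148b, which passed under no setting, changed sign to -0.0078 and -0.0049 with total counts. The order of the 7 genes was the same per hairpin base, a division that could not have reversed its narrow steps. The log2 ratio of Mir152 over Mir148b was 0.21 without replicate 1 and -0.06 without replicate 2. Without the most abundant gene in the total, Mir130a stood at 18103 CPM, and with either strand counted at 15393 CPM. Depth limits Mir301b most, with 250 and 307 counts.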
